A study of Mus musculus with 16 samples.

Results

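The glutamate and GABA receptor subunits measured here are the 39 genes that encode AMPA (Gria1 to Gria4), kainate (Grik1 to Grik5), NMDA (Grin1, Grin2a to Grin2d, Grin3a, and Grin3b), and metabotropic glutamate receptors (the Grm genes), the alpha, beta, gamma, and delta subunits of GABA-A receptors, and both subunits of GABA-B receptors. They were chosen by gene name alone, and are 39 of the 24421 rows in the table of counts. RNA-Seq was performed on CD11b+ cells from the brains of female C57BL/6J mice that had begun their diets at weaning, with 1 library per mouse in 3 groups. CON mice (n = 4) ate standard chow and MAL mice (n = 5) an isocaloric diet low in protein and fat, and both were gavaged with PBS as a sham. MAL-BG mice (n = 7) ate the low protein and fat diet and were gavaged with a mix of E. coli and Bacteroidales species. Mice of all groups ate their diets for 1 month. Microglia and other myeloid cells carry CD11b on their surface, and magnetic beads against it were used to hold such cells back after dissociation, so the fraction is enriched and not pure. The labels name cortical tissue as the source, and the methods of the study name whole cerebra.

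Glutamate is the main excitatory transmitter of the brain, and GABA the main inhibitory one. AMPA, kainate, and NMDA receptors are ion channels that glutamate opens, and GABA-A receptors are chloride channels that GABA opens. Metabotropic glutamate receptors and GABA-B receptors act through G proteins. Most of these subunits are known from neurons, while some, among them Grm3 and Grin2c, are also transcribed in astrocytes, and GABA-B receptors have been described on microglia.

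Libraries held 10312703 to 13461574 counts in CON, 10864121 to 12819982 in MAL, and 14191791 to 18705202 in MAL-BG, so every MAL-BG library was deeper than every other library. Levels are given as CPM, counts relative to the library sizes after TMM scaling. All 15 microglia markers (such as P2ry12, Tmem119, and Cx3cr1) were detected in the fraction, with a summed level of 20119 to 32526 CPM in CON, 20673 to 35220 in MAL, and 42793 to 59272 in MAL-BG. Genes of other cells were present as well. The 16 neuron markers (such as Snap25, Syn1, and Rbfox3) summed to 100.1 to 418 CPM in CON, 138 to 341 in MAL, and 49.5 to 138 in MAL-BG, and the 12 choroid plexus markers (such as Ttr) to 14035 to 54359, 6512 to 42802, and 1779.9 to 16651 CPM. In these bulk libraries, fewer cells of a type and less RNA per cell cannot be told apart.

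RefSeq holds a promoter window, 250 bases before and 50 bases after the transcription start on GRCm38.p6, for 26 of the 39 genes. Windows were searched on both strands for 4 motifs. GGGCGG, the GC box, was in the windows of 15 of the 26 genes, and in those of 38.2% of all 27025 genes with a window. TATAAA, a core promoter element, was found for 3 (Gabra3, Gabrb2, and Grin3b), against 15.7% of all genes, and the cyclic AMP response element TGACGTCA for 0, against 2.03% of all genes. The letters CACCNNGGACAG, with N for any base, which form part of the element bound by the neuronal gene repressor REST, occurred for Gria2 only, and for 0.211% of all genes. Each match is a match of letters, and binding was not measured. The sequences printed are the stretch of Gria2 with this match, the 250 bases before the start of Gabbr1, the receptor subunit with the most counts, and those before the start of Gabra6, the subunit with the largest fitted fall in MAL-BG. The Gria2 window belongs to a start inside the annotated gene (chr3:80681450-80804227), downstream of its outermost annotated start. Capitals mark the REST-like letters in Gria2 (chr3:80802985-80803014, minus strand) and the GC boxes in Gabbr1 (chr17:37045716-37045965, plus strand), while Gabra6 (chr11:42321073-42321322, minus strand) has no GC box and is in lower case throughout. G and C made up 66.0% of the bases before Gabbr1 and 40.8% of those before Gabra6.
Gria2: accaaagcgCTGTCCGCGGTGctaaaatcg
Gabbr1: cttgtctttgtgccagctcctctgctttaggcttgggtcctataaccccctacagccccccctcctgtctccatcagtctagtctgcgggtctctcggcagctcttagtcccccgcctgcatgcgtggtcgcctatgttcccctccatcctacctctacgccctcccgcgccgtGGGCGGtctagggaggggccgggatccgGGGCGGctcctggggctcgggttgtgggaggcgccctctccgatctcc
Gabra6: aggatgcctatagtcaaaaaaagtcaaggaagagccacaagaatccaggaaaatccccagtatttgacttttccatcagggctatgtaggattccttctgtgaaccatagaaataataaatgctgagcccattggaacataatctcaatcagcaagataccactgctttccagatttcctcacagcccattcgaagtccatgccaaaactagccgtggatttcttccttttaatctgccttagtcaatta

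Gabbr1 stood apart in level from all other subunits. Over the 16 libraries its mean was 138 CPM, or 17.8 CPM per kb of transcript. Grik5 followed at 3.65 CPM per kb, Grm3 at 1.13, Gria1 at 0.870, Gabrd at 0.766, and Grin2c at 0.552, and these 6 are the highest per kb within the GABA-B, kainate, metabotropic glutamate, AMPA, GABA-A, and NMDA receptors, respectively. The other 33 subunits were at 0.411 CPM per kb (Gabra3) or lower. Outside Gabbr1, all 38 subunits together reached only 52.0 to 142 CPM per CON library, 50.8 to 136 per MAL library, and 20.4 to 71.7 per MAL-BG library.

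Tests were possible for the 30 subunits with more than 10 counts in at least 4 of the 16 libraries. Grik3, just inside this limit, exceeded 10 counts in 4 libraries, and Gabra5 and Grm2, just outside it, in 3. Of the 9 subunits that were not tested, Gabrg3 had 0 counts in every library, and Grin2a, a main NMDA receptor subunit of the adult forebrain, had 1 count in all, in CON replicate 2. A count of 0 allows up to 3 counts per library, or 0.227 to 0.278 CPM in CON, 0.224 to 0.258 in MAL, and 0.163 to 0.230 in MAL-BG, for counting error alone. The 4 globin genes Hba-a1, Hba-a2, Hbb-bs, and Hbb-bt were also listed at 0 in all libraries. Gabra5, a subunit of hippocampal GABA-A receptors outside synapses, had 40 counts over the CON libraries, 52 over MAL, and 2 over MAL-BG, the last both in MAL-BG replicate 4. Gabra2 had 28, 43, and 14 counts, and Grm2, an autoreceptor that limits glutamate release, 26, 44, and 11. Grik2 had 39, 27, and 28 counts, 19 of the last in MAL-BG replicate 2. Grik1 (5, 7, and 12 counts), Grm6 (8, 4, and 22 counts), known for its role in retinal bipolar cells, and Grin3b (5, 17, and 25 counts) were scarcely detected in any group.

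**Figure D1:**
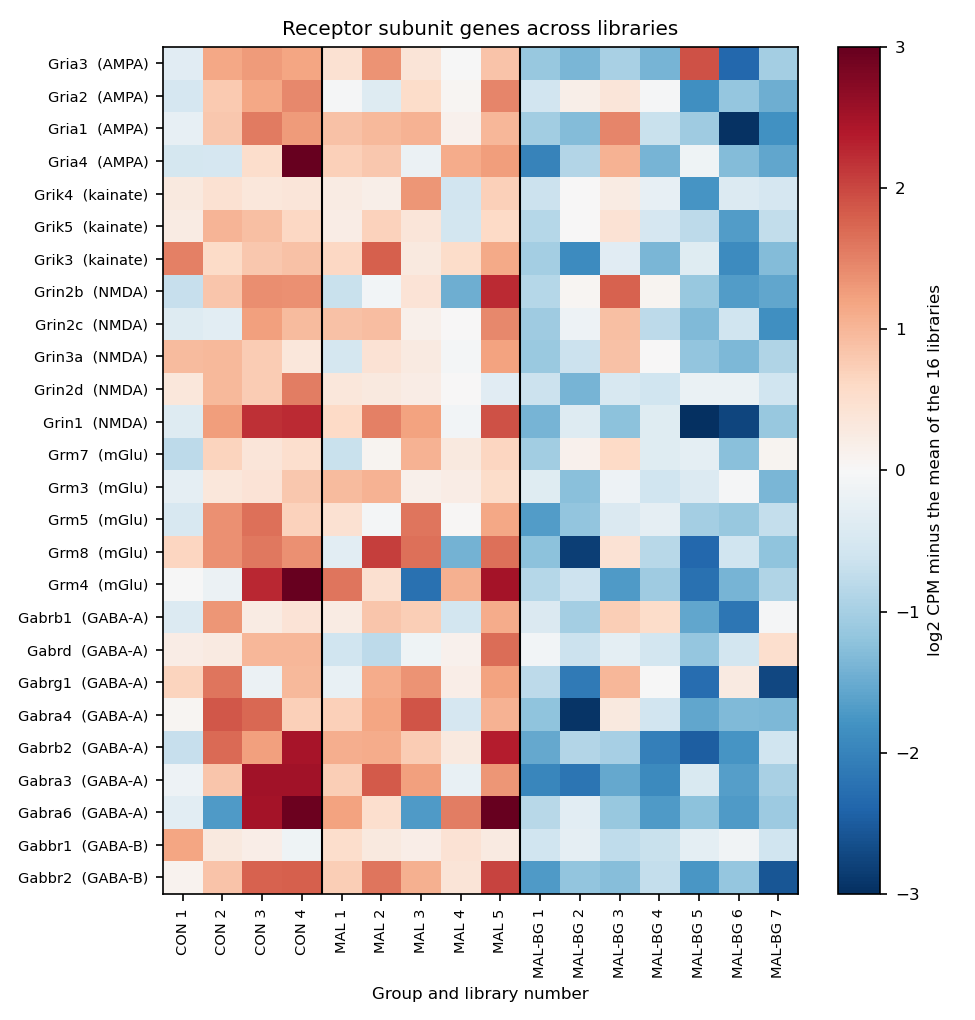
Receptor subunit genes (26 rows, by receptor type) in each of the 16 libraries (columns, by group and library number). Colours give the log2 CPM minus the mean of that gene over the 16 libraries. Most MAL-BG columns are blue and most CON and MAL columns red, with CON replicate 1 (above the mean in 11 of all 30 tested) and MAL-BG replicate 3 (15 of 30) as the mixed columns.

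Every one of the 30 tested subunits had a negative log2 fold change in MAL-BG mice, against each of the other groups. Against CON, 21 of the 30 fell and 0 rose (adjusted p under 0.05 and absolute log2 fold change above 0.58, edgeR quasi-likelihood test with Benjamini-Hochberg adjustment over 14565 genes), where 21.7% of all genes were lower and 11.4% higher. Against MAL, 19 fell and 0 rose, where 20.2% of all genes were lower and 10.2% higher. The median log2 fold change of the 30 was -1.95 against CON and -1.44 against MAL, beside -0.04 and -0.03 for all genes tested. Both comparisons share the MAL-BG libraries, and 17 subunits were called in each of them. The count of falls is tied to the filter, since 8 of the 30 (among them Gabbr2, Gabra6, Gabrb2, Grik3, Grin2d, Grm4, and Grm5) exceeded 10 counts in no MAL-BG library and entered the test through CON and MAL libraries alone, so these counts are a description of the 30 and not of all 39. The 10 subunits that would have passed on the MAL-BG libraries alone had 4 falls against CON and 5 against MAL, with medians of -0.998 and -0.890 on the log2 scale, so 17 of the 21 falls against CON and 14 of the 19 against MAL were those of the other 20 subunits, which needed CON or MAL libraries to pass.

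Separation of the libraries was less frequent than the calls. Only for Gabbr2, Gabra3, and Grik3 did all 7 MAL-BG libraries lie below all 9 CON and MAL libraries, 10% of the 30 tested, where 6.36% of all genes tested did so. Gabbr2 and Grik3 exceeded 10 counts in no MAL-BG library and Gabra3 in 1, so all 3 passed the filter through CON and MAL libraries, and nothing is read from the share. MAL-BG replicate 3 was above the 16-library mean in 15 of the 30 subunits and the other MAL-BG libraries in 0 to 5, while CON replicate 1 was above it in 11 and the other CON and MAL libraries in 20 to 29. Without MAL-BG replicate 3, 25 subunits fell against CON and 24 against MAL. Leaving out both CON replicate 1 and MAL-BG replicate 3 gave 24 and 24. The share of all genes called in these refits is not given here. The higher counts are therefore not read as particular to the subunits.

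Between MAL and CON, 0 of the 30 subunits and 0% of all 14565 genes were called by edgeR, with a smallest adjusted p of 0.999 over all genes. DESeq2 also called 0. At an unadjusted p under 0.05 there were 212 genes, with Grin2d as the 1 subunit among them. It encodes an NMDA receptor subunit of interneurons and the brainstem, and its log2 fold change was -0.95 (SE 0.375, n = 5 MAL and 4 CON, adjusted p = 0.999). The median of the 30 subunits was -0.22, beside -0.02 for all genes, and 23 of the 30 were below 0.

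**Figure D2:**
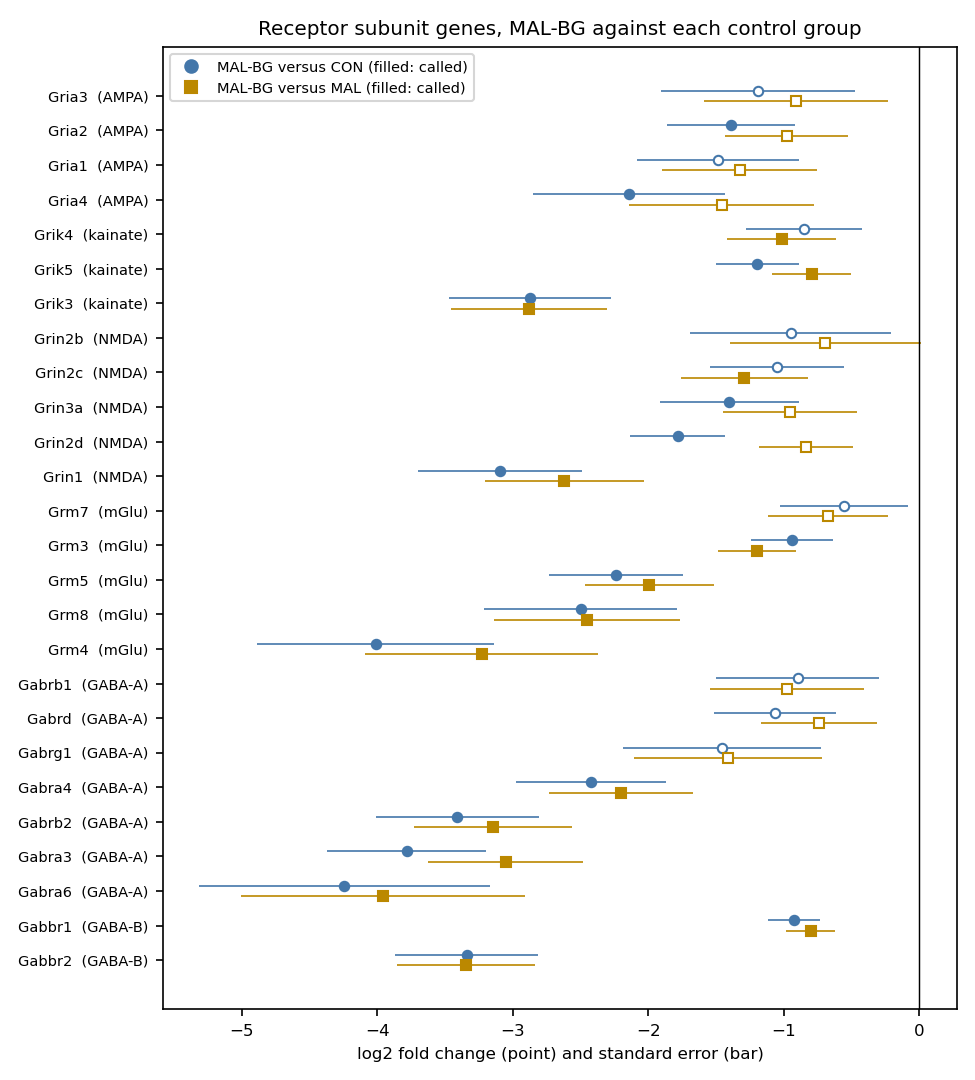
Log2 fold change (points) with its standard error (bars) of 26 tested receptor subunits, for MAL-BG against CON (circles) and against MAL (squares), with called genes filled. All 52 points lie left of 0, from -0.55 (Grm7) to -4.24 (Gabra6) against CON.

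GABA-B receptors need both subunits, Gabbr1 to bind GABA and Gabbr2 to reach the G protein, and the levels of these 2 transcripts were far apart. Gabbr1 (chr17:37045966-37074305, plus strand, GRCm38.p6) was read at 294, 159, 148, and 119 CPM in the CON libraries, at 187, 160, 148, 175, and 157 in the MAL libraries, and at 76.5 to 120 in the MAL-BG libraries (median 85.9). All MAL-BG libraries lay below all MAL libraries, and the highest of them overlapped the lowest CON library only. The mean was 180 ± 77.7 CPM (SD, n = 4) for CON, 165 ± 15.5 CPM (SD, n = 5) for MAL, and 94.8 ± 16.4 CPM (SD, n = 7) for MAL-BG. Gabbr1 fell by 0.92 on the log2 scale against CON (SE 0.191, adjusted p = 0.00113) and fell by 0.80 against MAL (SE 0.180, adjusted p = 0.00216). CON replicate 1, the CON library with the fewest counts for the other subunits, had the most Gabbr1, and without it the log2 fold change against CON was -0.58 (adjusted p = 0.00319), barely past the fold threshold. Without both that library and MAL-BG replicate 3 it was -0.54 (adjusted p = 0.00432), which is not called. With scaling by the mean log2 CPM together with offsets for transcript length and GC content it was -0.50 (adjusted p = 0.0693) against CON and -0.39 (adjusted p = 0.126) against MAL, both under the thresholds.

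Gabbr2 (chr4:46662318-46991714, minus strand) was much the scarcer. It was read at 0.767, 1.39, 2.76, and 2.80 CPM in CON and at 1.28, 2.46, 1.63, 0.966, and 3.34 CPM in MAL. In MAL-BG it was at 0 to 0.373 CPM (median 0.207), or 0 to 6 counts per library, and no MAL-BG library reached the lowest of the others. Gabbr2 fell by 3.34 on the log2 scale against CON (SE 0.529, adjusted p = 0.000171) and fell by 3.35 against MAL (SE 0.510, adjusted p = 0.000129).

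The ratio of both subunits was compared within libraries. Gabbr2 passed the filter through CON and MAL libraries alone, and with 0 to 6 counts in MAL-BG the size of the ratio there rests on the prior count added. The log2 ratio of Gabbr1 to Gabbr2, with a prior count of 2 scaled to library size, averaged 8.26 ± 0.618 (SD, n = 7) over MAL-BG, 6.51 ± 1.35 (SD, n = 4) over CON, and 6.43 ± 0.750 (SD, n = 5) over MAL libraries. Against MAL, the ratio was 1.83 higher in MAL-BG (exact two-sided permutation test with p = 0.00126, as small as 792 arrangements allow, and adjusted p = 0.0114 over 9 tests). The difference was 2.51 with a prior count of 0.5 and 1.92 with a prior count of 2 that was not scaled (exact permutation tests, adjusted p = 0.0227 and 0.0114). Against CON, it was 1.75 higher (exact permutation test, p = 0.0152, adjusted p = 0.0682), which did not pass after adjustment, and without CON replicate 1 it was 2.36 higher (exact permutation test, adjusted p = 0.0375). MAL and CON differed by -0.08 (exact permutation test, p = 0.929). Even in MAL-BG, Gabbr1 was higher in CPM in each library than any other subunit in any of the 16 libraries, the next being Grik5 at 34.2 CPM in CON replicate 2.

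**Figure D3:**
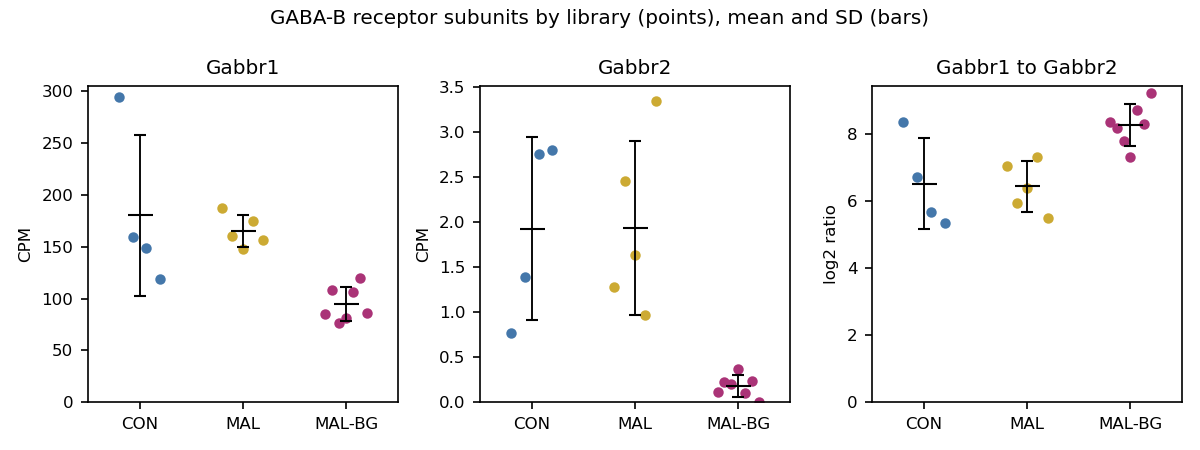
GABA-B receptor subunits Gabbr1 and Gabbr2 in CPM, and their log2 ratio, in CON (n = 4), MAL (n = 5), and MAL-BG (n = 7) libraries (points), with mean and SD (bars). MAL-BG libraries lie at 76.5 to 120 CPM for Gabbr1 and at 0 to 0.373 CPM for Gabbr2, and CON replicate 1 is the CON point with the highest Gabbr1 and the highest ratio.

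AMPA receptors carry fast excitatory transmission, and all 4 subunits passed the filter. Summed over the 4, the level was 6.83 to 32.4 CPM in CON, 11.3 to 21.1 in MAL, and 2.08 to 17.7 in MAL-BG. By edgeR, Gria2 and Gria4 fell against CON, and 0 of the 4 were called against MAL, where DESeq2 called Gria1 and the fit of these groups alone called Gria4 (-1.47, adjusted p = 0.0414). Gria1, a subunit moved into synapses in plasticity, was at 3.15, 6.68, 11.4, and 9.38 CPM in CON and at 7.06, 7.60, 7.91, 4.11, and 7.64 CPM in MAL. In MAL-BG it ranged from 0.356 to 10.6 CPM (median 1.73). The highest value was that of MAL-BG replicate 3, within the CON range, and the other 6 MAL-BG libraries were below all CON and MAL libraries. The log2 fold change was -1.48 against CON (SE 0.600, adjusted p = 0.0533) and -1.33 against MAL (SE 0.571, adjusted p = 0.0687) by edgeR, neither of them called. DESeq2 called Gria1 in both (-1.47, adjusted p = 0.0331 and -1.31, adjusted p = 0.0433), and against CON it was also called with libraries thinned to the smallest (-1.52, adjusted p = 0.0467) and without CON replicate 1 (-1.74, adjusted p = 0.0308). Without MAL-BG replicate 3 it was -2.41 (adjusted p = 0.000229) and -2.25 (adjusted p = 0.000309), and Gria1 then fell in both comparisons.

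Gria2 makes AMPA receptors impermeable to calcium once its RNA is edited, and its REST-like letters are printed above. CON libraries were at 1.84, 4.73, 6.22, and 7.57 CPM, MAL libraries at 2.64, 2.01, 4.04, 2.82, and 7.64, and MAL-BG libraries at 0.650 to 3.51 (median 1.77). The groups overlapped through the lowest CON library, which was again CON replicate 1, and through MAL replicates 1, 2, and 4. Gria2 fell by 1.39 on the log2 scale against CON (SE 0.476, adjusted p = 0.0254), a call that was lost without CON replicate 3 (-1.28, adjusted p = 0.0690), without CON replicate 4 (-1.13, adjusted p = 0.0985), or without MAL-BG replicate 7 (-1.20, adjusted p = 0.0553). It was also lost with offsets for transcript length and GC content (-1.14, adjusted p = 0.0607) and with these and scaling by the mean log2 CPM (-0.87, adjusted p = 0.119). Against MAL it was at -0.98 (SE 0.455, adjusted p = 0.0897), and without MAL-BG replicate 3 at -1.19 (adjusted p = 0.0449). The ratio of Gria2 to Gria1, which bears on calcium entry, did not pass a test. Its log2 value averaged -0.05 ± 1.06 (SD, n = 7) over MAL-BG, -0.59 ± 0.248 (SD, n = 4) over CON, and -0.94 ± 0.718 (SD, n = 5) over MAL libraries (exact permutation tests, adjusted p = 0.586 and 0.436 for MAL-BG against CON and MAL). For Gria2 against the sum of the other 3 subunits, the adjusted p was 0.586 in each of the 3 comparisons (exact permutation tests), and the spread among the MAL-BG libraries was the widest.

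Gria4 is a subunit of interneurons and the cerebellum. In CON it was at 0.921, 0.927, 2.05, and 12.5 CPM, the last in CON replicate 4, and in MAL at 2.38, 2.53, 1.20, 3.14, and 3.50 CPM. MAL-BG libraries ranged from 0.236 to 3.03 CPM (median 0.475), with MAL-BG replicate 3 highest. Gria4 fell by 2.14 on the log2 scale against CON (SE 0.710, adjusted p = 0.0215), and without CON replicate 4 the log2 fold change was -0.49 (adjusted p = 0.571). DESeq2 gave this gene no adjusted p. Against MAL the log2 fold change was -1.46 (SE 0.685, adjusted p = 0.0929), and without MAL-BG replicate 3 it was -2.12 (adjusted p = 0.0137) and without CON replicate 4 it was -1.46 (adjusted p = 0.0362). Gria3 was at -1.19 against CON (adjusted p = 0.185) and -0.91 against MAL (adjusted p = 0.288), with 1 library, MAL-BG replicate 5, at 4.99 CPM and 92 counts, where the other MAL-BG libraries had 2 to 8 counts. Gria2, Gria3, and Gria4 share exon bases with small RNA genes of the same strand (Gm25749, Gm22413, and Gm23811), whose reads the count may or may not include. Grik4 and Grm8 likewise share exon bases with same-strand genes (Gm24420 and Mir592).

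Of the kainate receptors, Grik3, Grik4, and Grik5 could be tested. Grik4 and Grik5 form working channels only together with Grik1, Grik2, or Grik3, and Grik5 was by far the most abundant of the 5. Grik5 (chr7:25009849-25075694, minus strand) was at 19.9, 34.2, 31.3, and 25.9 CPM in CON, at 19.6, 27.1, 21.6, 11.4, and 25.5 CPM in MAL, and at 5.11 to 22.7 CPM in MAL-BG (median 10.01). MAL-BG replicate 3 alone among the MAL-BG libraries reached the CON range. Means were 27.8 ± 6.32, 21.1 ± 6.17, and 12.2 ± 5.82 CPM (SD, n = 4, 5, and 7). Grik5 fell by 1.19 on the log2 scale against CON (SE 0.307, adjusted p = 0.00494) and fell by 0.79 against MAL (SE 0.292, adjusted p = 0.0362). The first call held in each of 29 alternative settings, while the second was lost in 10 of 29, among them leaving out MAL replicates 1, 2, 3, or 5 or MAL-BG replicates 1, 4, 5, or 7 (-0.66 to -1.02 over all single libraries left out).

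Grik4 was among the 3 subunits with the smallest fall against CON. The CON libraries lay close together at 1.15, 1.30, 1.18, and 1.21 CPM, and the MAL libraries were at 1.11, 1.04, 2.49, 0.564, and 1.59. MAL-BG libraries were at 0.163 to 1.10 CPM (median 0.653), all below the lowest CON library and above the lowest MAL library in 5 of 7. The log2 fold change was -0.85 against CON (SE 0.428, adjusted p = 0.115), which is not called. Grik4 fell by 1.02 on the log2 scale against MAL (SE 0.401, adjusted p = 0.0487), and 19 of 29 alternatives lost this call, with adjusted p up to 0.199 without MAL replicate 3. Grik3, at 0.649 to 1.38 CPM in CON and 0.516 to 1.71 in MAL, was at 0 to 0.276 CPM in MAL-BG, with 0 to 5 counts per library and no overlap with the other groups. It fell by 2.87 against CON and by 2.88 against MAL on the log2 scale (adjusted p = 0.00123 and 0.000923).

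NMDA receptors are built on Grin1, joined by Grin2 subunits that bind glutamate or Grin3 subunits that bind glycine. Grin1 fell by 3.09 on the log2 scale against CON (SE 0.609, adjusted p = 0.000805) and fell by 2.62 against MAL (SE 0.587, adjusted p = 0.00209). Its libraries were at 1.23, 4.08, 8.03, and 8.32 CPM in CON, at 2.55, 4.92, 3.96, 1.53, and 6.53 CPM in MAL, and at 0.0542 to 1.24 CPM in MAL-BG (median 0.620). Only CON replicate 1 lay within the MAL-BG range. Grin2d and Grin3a fell against CON (-1.78 and -1.40, adjusted p = 0.000774 and 0.0347) and were at -0.84 and -0.95 against MAL (adjusted p = 0.0596 and 0.126).

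Grin2c, known from cerebellar granule cells and astrocytes, was the most abundant NMDA receptor subunit per kb. It was at 1.69, 1.76, 5.43, and 4.46 CPM in CON, at 4.25, 4.40, 2.49, 2.25, and 6.37 CPM in MAL, and at 0.519 to 4.34 CPM in MAL-BG (median 1.24). MAL-BG replicate 3 was the highest MAL-BG library once more, and the others lay below all MAL libraries. The log2 fold change was -1.05 against CON (SE 0.496, adjusted p = 0.0945), and without MAL-BG replicate 3 it was -1.52 (adjusted p = 0.00836). Grin2c fell by 1.29 on the log2 scale against MAL (SE 0.467, adjusted p = 0.0335), a call that 8 of 29 alternatives lost, with adjusted p up to 0.106 without MAL replicate 5.

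Grin2b, the subunit of early postnatal forebrain receptors, was not called in either comparison. CON libraries were at 1.07, 3.34, 5.04, and 4.92 CPM, MAL libraries at 1.11, 1.71, 2.49, 0.564, and 9.15, and MAL-BG libraries at 0.475 to 6.54 (median 0.943). MAL replicate 5 and MAL-BG replicate 3 were the highest of their groups, and all 3 groups overlapped. The log2 fold change was -0.95 against CON (SE 0.742, adjusted p = 0.312) and -0.69 against MAL (SE 0.705, adjusted p = 0.440), and without MAL replicate 5 the latter was 0.34 (adjusted p = 0.722). Without MAL-BG replicate 3, the fold change against CON was -1.72 (adjusted p = 0.0416).

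Metabotropic glutamate receptors fell in 5 of 6 tested members against each of CON and MAL, and Grm7 was the exception. Grm5, which acts through phospholipase C, was at -2.24 on the log2 scale against CON (adjusted p = 0.00187) and at -1.99 against MAL (adjusted p = 0.00322), and thus fell in both. Grm3, which lowers cyclic AMP and is known from astrocytes as well as neurons, was at 2.53, 3.99, 4.17, and 5.52 CPM in CON, at 6.13, 6.49, 3.44, 3.62, and 4.62 CPM in MAL, and at 1.11 to 3.03 CPM in MAL-BG (median 2.28). Each MAL-BG library lay below each MAL library, and CON replicate 1 alone among CON libraries overlapped them. Grm3 fell by 0.94 on the log2 scale against CON (SE 0.304, adjusted p = 0.0194) and fell by 1.20 against MAL (SE 0.286, adjusted p = 0.00319). The call against CON was lost without CON replicate 4 (-0.75, adjusted p = 0.0862), MAL-BG replicate 2 (-0.77, adjusted p = 0.0534), or MAL-BG replicate 7 (-0.75, adjusted p = 0.0534).

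Among the receptors that sit on presynaptic endings, Grm4 and Grm7 marked the ends of the range. Grm4, abundant in cerebellar granule cells, was at 0.537, 0.464, 3.15, and 6.58 CPM in CON, at 1.96, 0.820, 0, 1.29, and 3.74 CPM in MAL, and at 0 to 0.306 CPM in MAL-BG (median 0.187). The CON and MAL libraries differed more among themselves than for most subunits, and MAL replicate 3 had 0 counts. Grm4 fell by 4.01 on the log2 scale against CON (SE 0.875, adjusted p = 0.00165) and fell by 3.23 against MAL (SE 0.859, adjusted p = 0.00631). It had 0 to 4 counts per MAL-BG library and passed the filter through CON and MAL libraries alone. The size of its fall thus depends on the prior count of the fit. Grm7 was at 0.384, 1.30, 1.02, and 1.13 CPM in CON, at 0.425, 0.820, 1.72, 0.966, and 1.27 CPM in MAL, and at 0.238 to 1.24 CPM in MAL-BG (median 0.596). These ranges overlapped. The log2 fold change of Grm7 was -0.55 against CON (SE 0.473, adjusted p = 0.356) and -0.67 against MAL (SE 0.441, adjusted p = 0.223). Grm8 fell against CON (adjusted p = 0.00936) and fell by 2.45 on the log2 scale against MAL (adjusted p = 0.00850).

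GABA-A receptors are pentamers, mostly of alpha, beta, and gamma subunits, and 7 of the 10 tested members fell against CON and 7 against MAL. Summed over the 13, they were at 9.29 to 34.6 CPM in CON, 10.9 to 37.9 in MAL, and 2.602 to 9.09 in MAL-BG, so that the highest MAL-BG library was under the lowest CON library. Gabra3 (chrX:72432676-72656919, minus strand) was at 0.767, 1.67, 5.67, and 5.67 CPM in CON, at 1.53, 3.504, 2.24, 0.725, and 2.39 CPM in MAL, and at 0.0766 to 0.596 CPM in MAL-BG (median 0.178). All MAL-BG libraries were below all others. Gabra3 fell by 3.78 on the log2 scale against CON (SE 0.587, adjusted p = 0.000149) and fell by 3.05 against MAL (SE 0.571, adjusted p = 0.000589), and it was called in all of 29 alternatives against CON.

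Gabra6, known almost solely from cerebellar granule cells, had the largest fitted fall of the 30. It was at 0.230, 0, 2.52, and 3.48 CPM in CON, at 0.936, 0.522, 0, 1.21, and 3.74 CPM in MAL, and at 0 to 0.230 CPM in MAL-BG (median 0.0689). The counts were 3, 0, 32, and 46 in CON and 0 to 3 in MAL-BG, and CON replicate 2 and MAL replicate 3 had none. It passed the filter through CON and MAL libraries alone, and at these MAL-BG counts the size of the fall depends on the prior count of the fit. Gabra6 fell by 4.24 on the log2 scale against CON (SE 1.07, adjusted p = 0.00447) and fell by 3.96 against MAL (SE 1.05, adjusted p = 0.00624). CON replicate 2 and MAL replicate 3 were also the lowest of their groups for Grm4 and for the granule cell genes Cbln1 and Cbln3. Cbln1 had 4, 1, 49, and 170 counts in CON and 39, 22, 4, 46, and 116 in MAL, and 2 to 11 in MAL-BG. The summed level of all 10 cerebellar neuron markers did not rank these libraries lowest. It was 142 CPM in CON replicate 2, above CON replicate 3 (110 CPM) and CON replicate 1, the lowest at 38.98 CPM. In MAL replicate 3 it was 112 CPM, and MAL replicate 4 was the lowest of MAL at 51.5 CPM. Of the 8 cerebellar neuron markers tested, 7 were lower in MAL-BG than CON. These genes thus differed between libraries of the same group, and the part of cerebellar tissue in the falls of Gabra6 and Grm4 was not tested.

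Gabrd, which replaces gamma subunits in receptors outside synapses, was the GABA-A subunit with the highest level per kb and was not called. CON libraries were at 2.23, 2.32, 3.94, and 3.93 CPM, MAL libraries at 1.19, 1.04, 1.72, 2.09, and 6.37, and MAL-BG libraries at 0.759 to 2.74 (median 1.25). MAL-BG libraries overlapped both groups, and MAL replicate 5 stood highest. The log2 fold change was -1.06 against CON (SE 0.449, adjusted p = 0.0636), which passed without MAL replicate 5 (-1.06, adjusted p = 0.0198) or without MAL-BG replicate 7 (-1.20, adjusted p = 0.0430), in the fit of both groups alone (-1.08, adjusted p = 0.0283), and with length and GC offsets (-1.18, adjusted p = 0.0421), and -0.74 against MAL (SE 0.428, adjusted p = 0.169). Gabrb1 was at 0.537, 2.13, 0.945, and 1.06 CPM in CON, at 0.936, 1.49, 1.38, 0.483, and 1.83 in MAL, and at 0.0594 to 1.38 in MAL-BG (median 0.530). Its groups overlapped, at a log2 fold change of -0.90 against CON (SE 0.605, adjusted p = 0.238) and -0.98 against MAL (SE 0.567, adjusted p = 0.171).

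**Figure D4:**
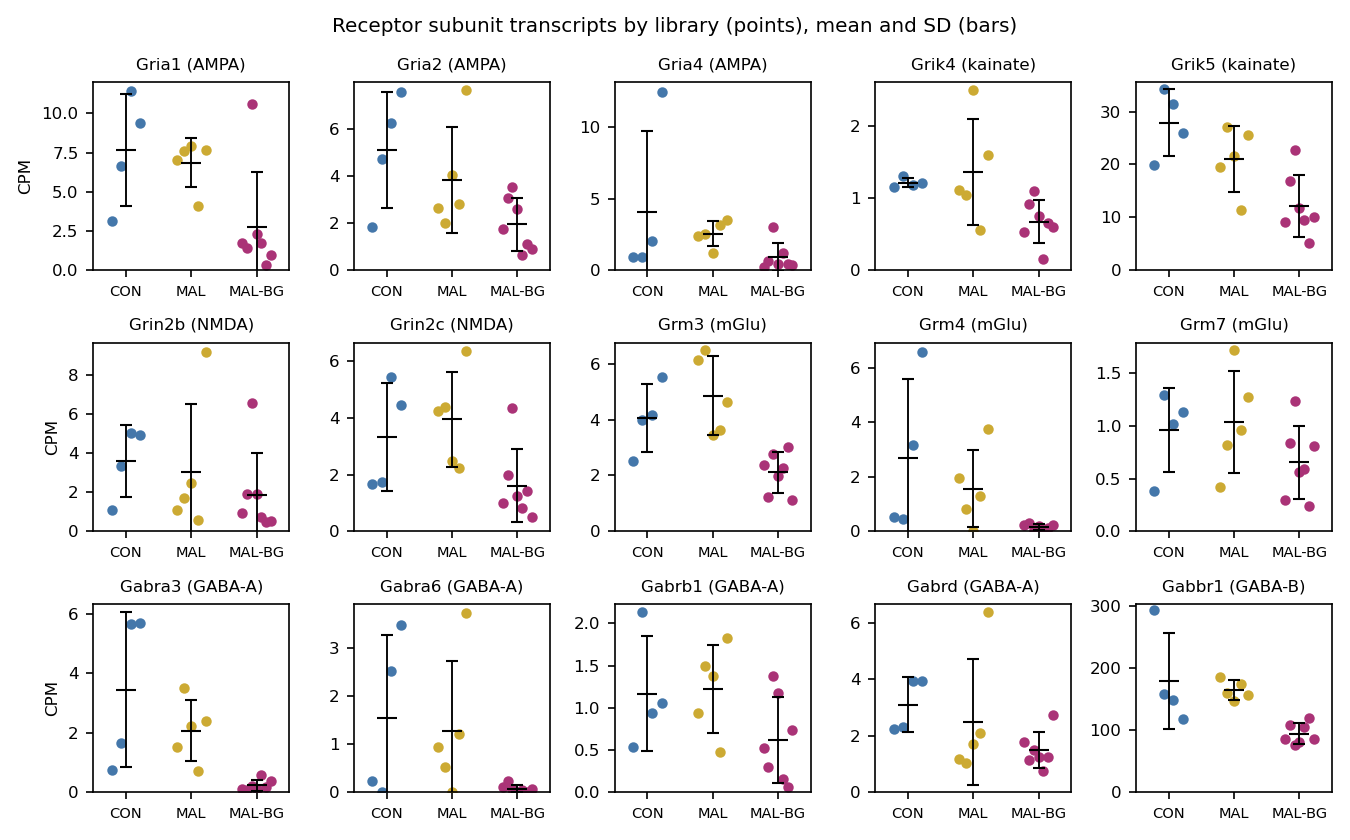
CPM of 15 receptor subunits in each CON (n = 4), MAL (n = 5), and MAL-BG (n = 7) library (points), with mean and SD (bars), on a linear scale from 0. Gabra3 and Gabra6 in MAL-BG lie at or under 0.596 and 0.230 CPM, whereas Grm7, Gabrb1, and Grin2b overlap between groups, and a lone MAL-BG point (replicate 3) stands high for Gria1, Grin2b, and Grin2c.

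Most GABA-A subunit genes lie in clusters in the mouse genome. In the cluster on chromosome 11, Gabra6 (-4.24 against CON) and Gabrb2 (-3.41), a beta subunit of many receptors of the adult brain, fell in both comparisons. On chromosome 5, Gabra4 fell (-2.42, adjusted p = 0.00233) while its neighbours Gabrg1 (-1.45, adjusted p = 0.114) and Gabrb1 (-0.90) were not called and Gabra2 was not tested. Gabra4 and Gabrb1 overlap at their starts on opposite strands. The library kit was stranded, but the strand option of the counting is not stated, so reads there may be shared. Exons of other subunits, among them Grin1, Grin2b, Grin2c, Grin2d, and Grm7, also overlap genes of the opposite strand, with the same limit. Whether the chromosome 5 genes differ from those on chromosome 11 was not tested.

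Other genes, which could likewise pass the filter through CON and MAL libraries alone, moved along with the receptor subunits. Of 16 neuron markers, 14 were lower in MAL-BG than CON and 1, Elavl4, was higher, and the same counts were found against MAL, while Stmn2 was called in neither. The summed level of the 38 subunits other than Gabbr1 was lowest where that of the neuron markers was lowest. Per 1000 CPM of neuron markers, subunits amounted to 386 ± 98.4 CPM (SD, n = 4) for CON, 384 ± 14.0 CPM (SD, n = 5) for MAL, and 415 ± 82.0 CPM (SD, n = 7) for MAL-BG, so these ratios overlapped between the groups (310 to 520, 369 to 399, and 330 to 532). CON replicate 1, with 100.1 CPM of neuron markers, had 52.0 CPM of subunits, and MAL-BG replicate 3, with 138 CPM, had 71.7 CPM. The ratios are of sums, in which Grik5 alone averaged 27.8 CPM in CON and 12.2 in MAL-BG. Median CPM in CON and MAL-BG was 117 and 28.3 for the 38 subunits and 344 and 79.6 for the neuron markers. It was 28.5 and 4.18 for GABA-A subunits and 256 and 29.6 for excitatory neuron markers. Ratios of single receptor types, or to excitatory neuron markers, were not tested. Of all genes tested, 21.7% were lower and 11.4% higher in MAL-BG against CON, and 20.2% and 10.2% against MAL. Marker lists near these shares are not read as shifts of a cell type. Excitatory neuron markers were lower in 8 of 9 tested, inhibitory neuron markers in 4 of 7, astrocyte markers in 6 of 13, and markers of oligodendrocyte precursors in 5 of 8, each against CON. Summed levels were 107 to 457 CPM in CON, 93.7 to 374 in MAL, and 20.4 to 38.6 in MAL-BG for the 11 excitatory neuron markers, and 10.4 to 25.9, 10.4 to 21.7, and 3.44 to 12.3 CPM for the 12 inhibitory neuron markers. The 13 astrocyte markers summed to 331 to 732, 398 to 686, and 188 to 390 CPM, and the 10 cerebellar neuron markers to 38.98 to 200, 51.5 to 119, and 32.4 to 122 CPM. None of these markers was at 0 in all libraries. Also against CON, ependyma markers were lower in 8 of 10, choroid plexus markers in 12 of 12, and monocyte markers in 4 of 10. Higher in MAL-BG than CON were 10 of 15 microglia markers, 10 of 10 neutrophil markers, 3 of 12 oligodendrocyte markers, and 2 of 6 lymphocyte markers. Endothelial and mural markers were split (1 lower and 2 higher of 13), and 1 of 8 border macrophage markers was lower. Against MAL, 6 ependyma markers were lower and 1 higher, 11 choroid plexus, 8 astrocyte, 6 monocyte, 3 inhibitory neuron, and 2 border macrophage markers were lower, 4 oligodendrocyte markers were higher, 2 endothelial and mural markers were lower and 5 higher, and 1 lymphocyte marker was lower and 2 higher, while the counts of the other lists equalled those against CON. The single erythroid marker tested, Alas2, was higher at 2.99 ± 1.02 CPM (SD, n = 7). The part of other cells in the fraction, and of the share of microglia among them, in the falls of the receptor subunits was not tested.

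**Figure D5:**
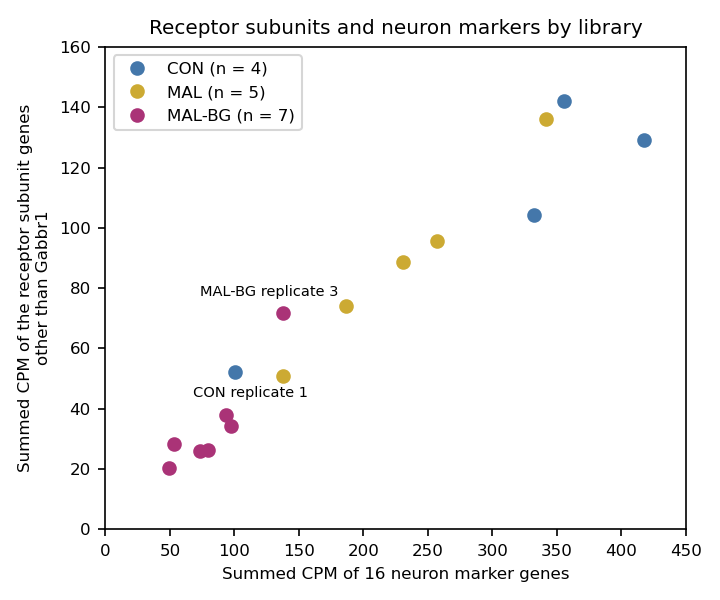
Summed CPM of the 38 receptor subunit genes other than Gabbr1 (vertical axis) against the summed CPM of 16 neuron marker genes (horizontal axis), 1 point per library. The MAL-BG libraries lie at 20.4 to 71.7 CPM of subunits and 49.5 to 138 CPM of neuron markers, next to CON replicate 1, and the other CON libraries at over 100 CPM of subunits.

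Transcripts for proteins that work with these receptors were followed in 5 lists. Their genes could also pass the filter through CON and MAL libraries alone. Of all genes tested, 21.7% were lower and 11.4% higher in MAL-BG than CON. Against MAL, 20.2% were lower and 10.2% higher. Of the auxiliary and anchoring proteins of glutamate receptors, 16 of 23 tested were lower and 0 higher against CON, and 17 and 0 against MAL (medians -2.23 and -1.98). Shank1, a scaffold of excitatory synapses, had the largest fall, from 20.4 ± 12.5 CPM (SD, n = 4) for CON and 16.2 ± 7.34 CPM (SD, n = 5) for MAL to 0.482 ± 0.328 CPM (SD, n = 7) for MAL-BG (-5.37 on the log2 scale against CON, adjusted p = 3.34e-06). Dlg4, the main anchor of NMDA receptors at synapses, had the highest level and fell from 75.3 ± 23.2 CPM (SD, n = 4) to 24.0 ± 1.95 CPM (SD, n = 7), or by 1.65 on the log2 scale (adjusted p = 1.73e-05). Of the auxiliary and anchoring proteins of GABA receptors, 7 of 14 were lower and 0 higher against CON, and 5 and 0 against MAL (medians -0.60 and -0.45). Kctd12, an auxiliary subunit of GABA-B receptors, was by far the most abundant of them at 2970.4 ± 816 CPM (SD, n = 4) for CON, 3117 ± 556 CPM (SD, n = 5) for MAL, and 1755 ± 497 CPM (SD, n = 7) for MAL-BG. It fell by 0.76 on the log2 scale against CON (adjusted p = 0.00900) and fell by 0.83 against MAL (adjusted p = 0.00378), close to the values of Gabbr1. Iqsec3, which binds gephyrin at inhibitory synapses, fell by 4.09 (adjusted p = 0.000479).

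Of the genes for synthesis, release, and uptake of both transmitters, 11 of 20 were lower and 1 higher against CON, and 12 and 1 against MAL. Slc17a7, which fills vesicles with glutamate, fell by 4.93 on the log2 scale against CON (adjusted p = 6.15e-06). Slc1a4, a carrier of neutral amino acids, rose by 1.01 on the log2 scale (adjusted p = 0.00324). Glul, glutamine synthetase, had the highest level of the list and was at -0.26 (adjusted p = 0.0898). Of the genes for signalling behind the receptors, 9 of 16 were lower and 2 higher against CON, and 8 and 1 against MAL. Adcy1, a calcium-stimulated adenylyl cyclase of neurons, fell by 4.57 (adjusted p = 7.61e-06), and Ppp3ca, the catalytic subunit of calcineurin, rose by 0.69 (adjusted p = 0.00287), as did Gnaq, a G protein that activates phospholipase C, by 0.61 (adjusted p = 0.0114). Among 13 related receptor subunits that the names above do not cover, such as glycine receptor and delta glutamate receptor subunits, only Glrb passed the filter, and it was lower by 1.38 on the log2 scale against CON (adjusted p = 0.0110).

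The receptor subunit genes are long, with a median span of 218.5 kb in the 30 tested, beside 23.7 kb for all tested genes with a known span. Of all tested genes spanning over 100 kb, 749 of 1972 (38.0%) were lower in MAL-BG than CON, and of the 18 subunits that long, 12 were. Of the 12 shorter subunits, 9 were lower. Across the 30 subunits, the log2 fold change against CON had a Spearman rho of 0.23 with the gene span and 0.11 with the GC content of the transcript, given as a description, since these genes were counted in the same libraries. With offsets for transcript length and GC content in the fit, 20 of the 30 fell against CON and 17 against MAL. The share of all genes called in that fit is not given here.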

How the data were processed

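The RNA-Seq libraries came from CD11b+ brain cells (CON 4, MAL 5, MAL-BG 7), each from its own mouse. The authors used STAR to align poly(A) reads to GRCm38 and HTSeq to count reads per gene (version 2.5 in the submitters' processing notes), and deposited counts that were not normalized. The methods of the study give another HTSeq version and name a stranded library kit. The strand option and annotation of the counting are not given in the sources used here. No sample title carries the column numbers of the table, so replicate numbers only name its columns, and no source names a library's batch. The study's own code has a batch term in its model, and the fit here departs from it in having none.

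With R 4.3.3, the 14565 of 24421 genes that exceeded 10 counts in 4 or more libraries were fitted for all 3 groups at once by edgeR 4.0.16 (quasi-likelihood test) and TMM scaling, with Benjamini-Hochberg adjustment over all genes. A gene was called at an adjusted p under 0.05 where its log2 fold change also exceeded 0.58 in size. Each SD is that between the mice of a group, and each SE belongs to a log2 fold change of this fit to all 3 groups. Log2 CPM and subunit ratios used a prior count of 2, and ratios were compared by two-sided exact permutation tests; the planned ratio of Grin2a to Grin2b was not tested, as Grin2a failed the filter. Transcript length (exons of GENCODE M21) and GC content were known for 14460 tested genes (99.3%), and coordinates are from RefSeq.

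Values per library were given for the highest tested subunit per kb of each receptor type, the 3 largest and 3 smallest falls against CON, and the 6 most abundant not called in both MAL-BG comparisons. A few genes enter the fit and the counts but are not reported here by name. Gabbr2, Grik3, and Grin1 were added after their values were seen. Fold changes or adjusted p of Gria3, Grin2d, Grin3a, Grm5, Grm8, Gabra4, Gabrb2, and Gabrg1 are also given outside this rule. Subunits, lists, and this rule were chosen with earlier results of these data known. Of other lists, the gene with the largest called change and the gene with the highest level were named, and others named (Elavl4, Stmn2, Slc1a4, Gnaq, Cbln1, and Cbln3) were chosen after their values were seen. Alternatives were other scalings and filters, DESeq2 1.42.0, adjusted p as the sole threshold, fits without the third group, thinning to the smallest library, offsets for length and GC content, and each library left out, while leaving out both CON replicate 1 and MAL-BG replicate 3, or both MAL-BG replicates 3 and 5, and a prior count not scaled to library size in the ratios, were chosen after seeing the data. The fit was tested on simulated data.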

Additional observations from a re-analysis of the deposited data

Results flagged for a closer look

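Among 78 sets of values (26 subunits in 3 groups, as log2 CPM), 4 held a library whose distance to the nearest other was an unusually large part of the group's range. Chance gives such a library in about 1 in 20 groups. Gria3 was lowest among CON libraries in CON replicate 1 at 0.092 (0.921 CPM). Gria1 was lowest among MAL libraries in MAL replicate 4 at 2.09 (4.11 CPM). Gria3 was highest among MAL-BG libraries in MAL-BG replicate 5 at 2.36 (4.99 CPM, 92 counts). Grin2d was lowest among MAL-BG libraries in MAL-BG replicate 2 at -1.75 (0.153 CPM, 2 counts).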

How the results depend on the processing

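Over the alternatives, 15 to 25 subunits were called against CON and 14 to 24 against MAL, all lower, and 0 between MAL and CON. The shares of all genes called in the alternatives are not given beside these counts. The fits held 22 to 38 subunits. The 15 against CON were of 22 with a mean of at least 1 CPM, and over the fits of the same 30 the range was 17 to 25. Scaling by the mean log2 CPM with length and GC offsets moved the median of all genes to 0.21 and 0.20, with 2344 of 5627 calls lower against CON, and 18 and 14 subunits fell. Grin2b against MAL ranged from -1.47 to 0.34 with libraries left out, the latter without MAL replicate 5. The difference in log2 Gabbr1 to Gabbr2 ratio between MAL-BG and CON passed the threshold with a prior count of 0.5 (2.42) and with thinned libraries (1.81), and was 1.36 to 2.36 with single libraries left out. That between MAL and CON was -0.47 to 0.53, and above 0 without CON replicate 1 (0.53), MAL replicate 2 (0.04), or MAL replicate 5 (0.15). The causes were not tested. No paired analysis was possible because the library numbers match no label. Subunits other than Gabbr1 and Grik5 had at most 165 counts in any library, which limits their precision.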
